A study of Mus musculus with 24 samples.

Results

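The 8 genes described here are Apold1, Klf2, Klf4, Nfkbia, Zfp36, Zfp36l1, Tob1 and Tent5c, early-response genes of blood vessels together with genes that control messenger RNA stability. They were chosen by name from earlier results of these data, in which their levels followed sets of 3 adjacent columns of the count table. Their pattern over sets and over time codes is therefore a description. P-values and calls between time codes rest on the same choice and are given without a reading. They are 8 of 40836 genes in the table, and all 8 were among the 20437 genes that passed the filter on low counts. The study sequenced polyadenylated RNA from mouse brain in 24 libraries. Each library is named by an E code (E4 or E3), a time code (05, 10 or 15) and a replicate number, giving 6 groups of 4 (E4-05, E3-05, E4-10, E3-10, E4-15 and E3-15). The series title concerns ApoE4, and the labels spell out neither code and give no treatment, strain or age for the groups used here. The titles name a month, from January to June, and number biological replicates within a month, over both E codes. January and February libraries carry code 05, March and April libraries 10, and May and June libraries 15. What the month stands for is not said in the titles. They do not say that the replicates were separate mice, so a p-value here measures the spread between these samples.

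Klf2 and Klf4 are zinc finger transcription factors that endothelial cells switch on under steady blood flow, and Apold1 is a gene that endothelial cells of the brain induce rapidly after stimuli. Nfkbia encodes the inhibitor that holds the transcription factor NF-kappaB in the cytoplasm and is itself a target of that factor. The proteins of Zfp36 (tristetraprolin) and Zfp36l1 bind AU-rich elements in messenger RNAs and bring in the CCR4-NOT deadenylase, the protein of Tob1 also binds that deadenylase, and the protein of Tent5c adds adenosines to messenger RNA tails. None of these genes is restricted to vessels, and in bulk tissue fewer cells of a type cannot be told apart from less of an RNA in each cell.

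Promoter windows of the genes that were high together are shown because these genes shared a pattern over the libraries. Each window holds the 250 bases before the transcription start, 5′ to 3′ on the gene's strand, from RefSeq on GRCm38.p6, another build than the mm39 of the counts; all 8 genes had a window. Capitals mark matches to TGACG (a core of the cyclic AMP response element, on either strand, so also CGTCA), to TATAAA, and to a CArG box, a MEF2 site or a kappaB site. The windows were Apold1 (chr6:134981751-134982000, plus strand), Klf2 (chr8:72318812-72319061, plus strand), Klf4 (chr4:55532476-55532725, minus strand), Nfkbia (chr12:55492648-55492897, minus strand) and Zfp36 (chr7:28379229-28379478, minus strand), and that of Tob1 (chr11:94211204-94211453, plus strand) is given as the contrast.
Apold1: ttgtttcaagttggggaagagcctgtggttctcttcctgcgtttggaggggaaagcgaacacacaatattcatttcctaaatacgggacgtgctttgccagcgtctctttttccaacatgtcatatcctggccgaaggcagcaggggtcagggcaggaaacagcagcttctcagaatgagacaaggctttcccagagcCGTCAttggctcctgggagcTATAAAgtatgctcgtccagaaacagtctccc
Klf2: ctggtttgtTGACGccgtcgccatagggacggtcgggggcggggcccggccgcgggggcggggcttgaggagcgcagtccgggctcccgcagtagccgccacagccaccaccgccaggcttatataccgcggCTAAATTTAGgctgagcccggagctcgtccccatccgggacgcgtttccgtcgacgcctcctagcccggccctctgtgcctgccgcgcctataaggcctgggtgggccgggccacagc
Klf4: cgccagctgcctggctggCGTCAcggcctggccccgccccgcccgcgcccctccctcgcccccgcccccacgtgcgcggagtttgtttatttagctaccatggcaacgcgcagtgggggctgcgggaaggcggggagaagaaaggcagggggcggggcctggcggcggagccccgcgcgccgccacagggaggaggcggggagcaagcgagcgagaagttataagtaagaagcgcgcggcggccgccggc
Nfkbia: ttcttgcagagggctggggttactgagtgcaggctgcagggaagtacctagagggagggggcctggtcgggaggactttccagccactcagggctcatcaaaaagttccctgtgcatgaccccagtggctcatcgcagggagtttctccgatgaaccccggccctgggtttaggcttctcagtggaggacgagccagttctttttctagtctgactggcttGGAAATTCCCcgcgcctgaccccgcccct
Zfp36: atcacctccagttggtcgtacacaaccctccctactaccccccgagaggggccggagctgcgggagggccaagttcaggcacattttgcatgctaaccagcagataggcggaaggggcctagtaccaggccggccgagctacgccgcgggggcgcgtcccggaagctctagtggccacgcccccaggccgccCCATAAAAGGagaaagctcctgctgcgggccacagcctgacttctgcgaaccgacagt
Tob1: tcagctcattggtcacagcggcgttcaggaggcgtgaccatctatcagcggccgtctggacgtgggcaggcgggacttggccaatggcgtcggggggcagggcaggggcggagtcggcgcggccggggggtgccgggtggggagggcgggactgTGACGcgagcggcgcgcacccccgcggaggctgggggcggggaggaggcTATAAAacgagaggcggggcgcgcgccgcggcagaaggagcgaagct

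No motif searched was in all 8 windows. TGACG stood in 5 of the 8 windows (Apold1 at positions -52 to -48, counting -1 as the base before the start, Klf2, Klf4, Tob1 and Tent5c), against 17.8% of 32851 windows over all genes. The full element TGACGTCA was in 0 of the 8 windows and in 1.55% of all. A CArG box, the binding site of serum response factor, was found in Zfp36 alone (positions -58 to -49) and in 1.47% of all windows. A MEF2 site was found in Klf2 alone (positions -118 to -109, 2.92% of all windows), and a kappaB site in Nfkbia alone (positions -29 to -20, on the opposite strand, 7.25% of all windows). TATAAA lay in Apold1, Zfp36l1 and Tob1 (12.4% of all windows). The AP-1 site TGANTCA was in Zfp36l1 (6.75%) and the ETS site CCGGAAG in Zfp36 (6.91%). The KLF-type site CCNCNCCC was in 7 of the 8 windows, all but that of Apold1, and in 45.9% of all windows, and the GC box GGGCGG, which overlaps it in part on the opposite strand, in 6 and in 32.7%. The letters GAGACC, known as a shear stress response element, were in none of the 8 and in 13.7% of all windows. Both strands were searched. A match describes letters and is not a binding site. GC content ran from 48.4% in Zfp36l1 to 78.8% in Tent5c, against a median of 52.4% over all windows.

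Sets are numbered 1 to 8 by column header, set 1 being columns 1 to 3 and set 8 columns 22 to 24. The labels do not say what a set is. Sets 1 and 2 held libraries of time code 05, sets 4 and 5 of 10, and sets 7 and 8 of 15, while set 3 joined E3-05 4, E4-05 4 and E3-10 1, and set 6 joined E4-10 4, E3-15 1 and E4-15 1. Each set held both E codes. Library totals were 37.4 M to 99.5 M counts (median 48.8 M). The last column of each set (a column number divisible by 3) carried much hindbrain RNA and is called hindbrain-rich here. Gabra6, a marker of cerebellar granule neurons, reached 85.5 to 533 CPM in these 8 libraries and 0 to 4.63 CPM in the other 16. The labels give no brain region. CPM are counts per M (mega) of the library total, scaled by edgeR's TMM factors. Other tissue stood out in 5 libraries: the red cell gene Hbb-bs was at 146 to 167 CPM in the 3 libraries of set 1, and at 2.88 to 44.1 CPM in the others. The pituitary hormone gene Gh was at 7125 CPM in E3-05 4 of set 3 and at 6099 CPM in E4-10 2 of set 4, and at 0.274 to 75.9 CPM in the others.

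Per kilobase of exon (CPM per kb, GENCODE M21 exons of GRCm38), Tob1 was the most abundant of the 8 at 23.0, followed by Zfp36l1 at 15.0, Nfkbia at 13.5 and Klf2 at 10.6. Klf4 averaged 3.51, Apold1 3.09 and Zfp36 2.78, and the ranges of these 3 over libraries overlapped (1.78 to 6.65, 0.686 to 9.01 and 1.51 to 5.80). Tent5c was lowest at 0.649. All 8 were well counted in these libraries: the smallest count was 102 reads, for Tent5c, and Apold1 had 169 to 1900 reads per library.

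Apold1 varied most, 13.1-fold between its lowest library at 2.45 CPM and its highest at 32.1 CPM. In sets 7 and 8, E4-15 2, E4-15 3 and E4-15 4 had 32.1, 18.3 and 16.5 CPM, and E3-15 2, E3-15 3 and E3-15 4 had 29.0, 32.1 and 16.4 CPM. In sets 1 and 2, E4-05 1, E4-05 2 and E4-05 3 had 3.92, 3.80 and 3.98 CPM, and E3-05 1, E3-05 2 and E3-05 3 had 4.77, 2.45 and 3.99 CPM. Libraries of sets 7 and 8 were all above those of every other set, and E4 and E3 libraries were mixed within a set. The libraries of set 6 that carry time code 15 were not with the others of that code: E4-15 1 had 4.02 CPM and E3-15 1 had 7.20 CPM, close to the 6.29 CPM of E4-10 4 in the same set. In set 3, E3-10 1 had 6.67 CPM, and E4-05 4 and E3-05 4, labelled 05, had 8.47 and 8.71 CPM. These were above the other 05 libraries and within the range of the 10 libraries. Set means thus ran from 3.71 CPM in set 1 to 31.1 CPM in set 7, 8.39-fold, while the highest library of a set was a median of 1.30-fold above its lowest.

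**Figure D1:**
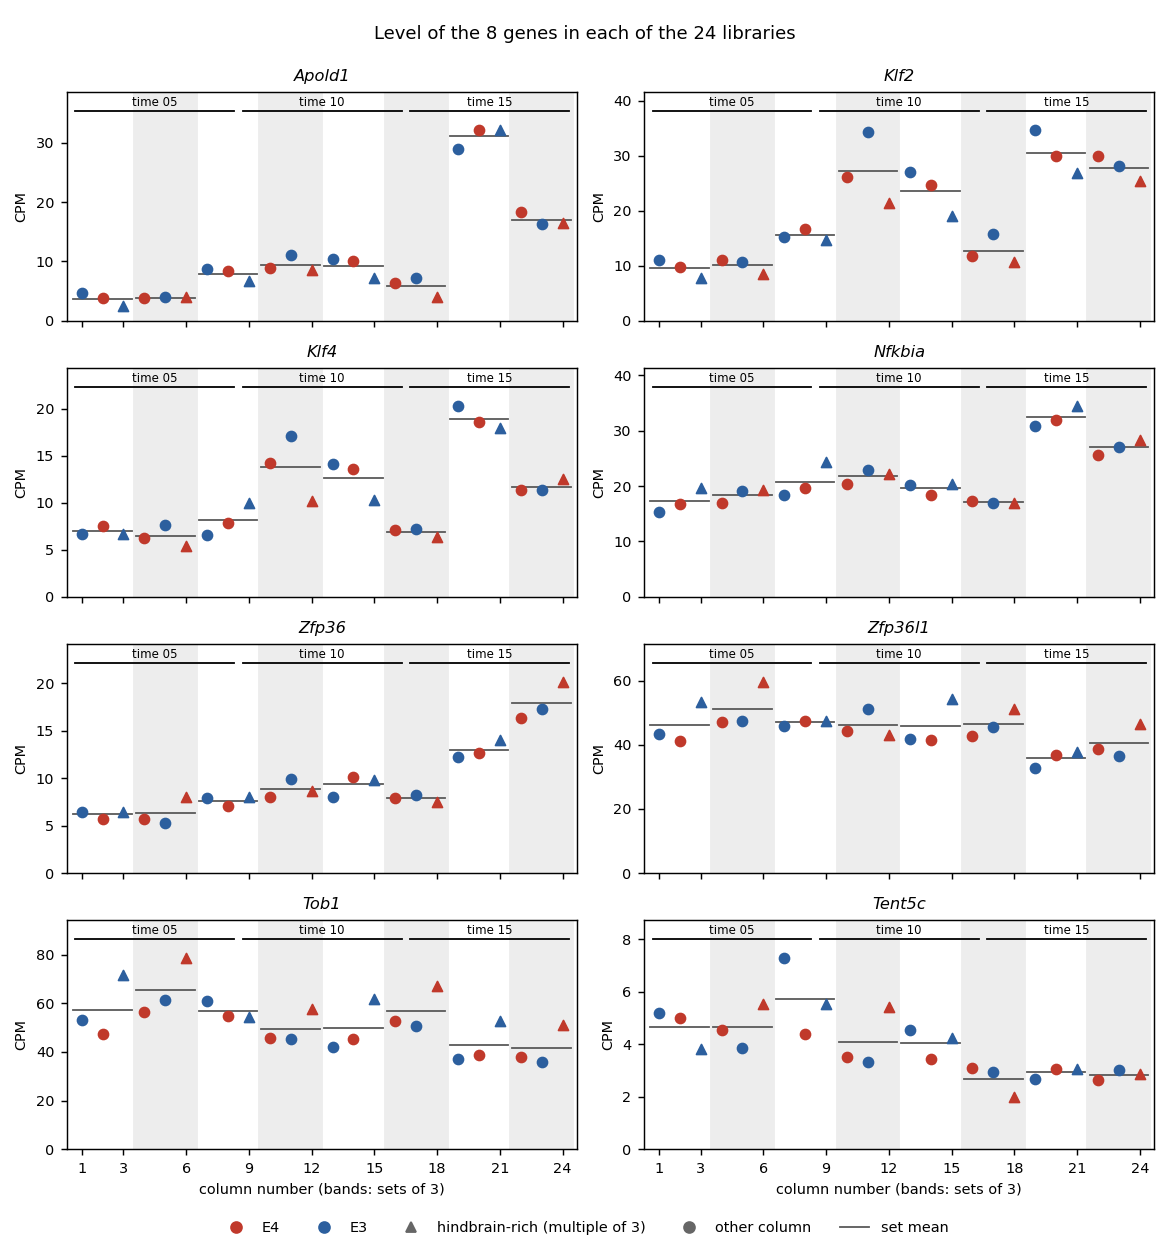
CPM of each of the 8 genes (vertical axis from 0) by column number; bands are sets of 3, colour gives the E code, triangles are hindbrain-rich columns and horizontal lines set means. Apold1 stood at 16.4 to 32.1 CPM in columns 19 to 24 and at 2.45 to 11.0 CPM in the others.

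Klf2 shared the high values of sets 7 and 8 and Klf4 those of set 7, but both were already high in sets 4 and 5. Klf2 set means were 9.51 and 10.1 CPM in sets 1 and 2, 15.6 in set 3, 27.2 and 23.6 in sets 4 and 5, 12.8 in set 6, and 30.4 and 27.8 in sets 7 and 8. Set 6 interrupted the series: E4-15 1, E3-15 1 and E4-10 4 had 10.7, 15.8 and 11.8 CPM, lower than each of the 6 libraries of sets 4 and 5 (19.0 to 34.3 CPM) and of sets 7 and 8 (25.4 to 34.7 CPM). Klf4 set means were 6.95 and 6.43 CPM in sets 1 and 2, 8.13 in set 3, 13.8 and 12.7 in sets 4 and 5, 6.90 in set 6, and 18.9 and 11.7 in sets 7 and 8. Klf4 in set 8 (11.3 to 12.5 CPM) lay inside the range of sets 4 and 5 (10.2 to 17.1 CPM), and only set 7 was above it. The median range within a set was 1.37-fold for Klf2 and 1.25-fold for Klf4.

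Nfkbia moved over a smaller range, 15.4 to 34.4 CPM. E4-15 2, E4-15 3 and E4-15 4 had 32.0, 25.5 and 28.4 CPM and E3-15 2, E3-15 3 and E3-15 4 had 30.9, 34.4 and 27.0 CPM, while the other 18 libraries had 15.4 to 24.4 CPM. Set 6 was the lowest set, at 17.1 CPM, with a range within the set of 1.02-fold. The groups of libraries in sets 7 and 8 and in the other sets did not overlap for Nfkbia. Since the genes were chosen on their sets, such a gap describes the choice. The share of all genes with a gap of this kind was not counted, nor for the gaps of Apold1, Zfp36 and Tent5c.

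Zfp36 was the only member of the 8 highest in set 8. E4-15 3, E4-15 4 and E3-15 4 of that set had 16.4, 20.1 and 17.3 CPM, the libraries of set 7 had 12.3, 12.6 and 14.1 CPM, and the other 18 libraries had 5.25 to 10.1 CPM. Sets 7 and 8 did not overlap with each other for Zfp36, nor with the rest. Apold1 had the opposite order in these 2 sets, with 29.0 to 32.1 CPM in set 7 and 16.4 to 18.3 CPM in set 8.

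Zfp36l1 and Tob1 ran the other way. Tob1 had its highest set mean in set 2 at 65.5 CPM and its lowest in sets 7 and 8 at 42.9 and 41.6 CPM, 1.57-fold between set 2 and set 8. Zfp36l1 had set means of 51.4 CPM in set 2 and of 35.8 and 40.7 CPM in sets 7 and 8, 1.43-fold between set 2 and set 7, and stayed at 45.9 to 47.0 CPM in sets 1 and 3 to 6. The median range within a set was 1.41-fold for Tob1 and 1.23-fold for Zfp36l1. Zfp36 and Zfp36l1, of 1 gene family, correlated at -0.60 over the 24 libraries.

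Tent5c was low in sets 7 and 8 too, and also in set 6. It had 7.28 CPM in E3-05 4, its highest library, and 1.98 CPM in E4-15 1, its lowest. Libraries of time code 15 had 1.98, 3.06, 2.63 and 2.87 CPM in E4 and 2.93, 2.69, 3.06 and 3.02 CPM in E3, below every library of codes 05 (3.84 to 7.28 CPM) and 10 (3.11 to 5.55 CPM). E4-10 4, the library of code 10 in set 6, was the lowest of its code at 3.11 CPM, and set 6 had the lowest mean, at 2.67 CPM.

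**Figure D2:**
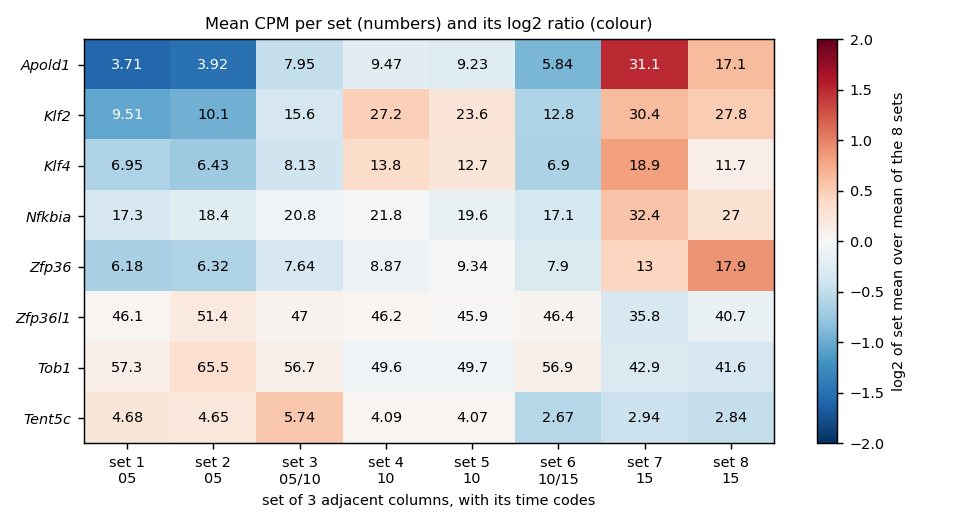
Mean CPM of each gene in each set (numbers) and its log2 ratio to the mean of the 8 set means (colour); columns are sets of 3 libraries with their time codes. Apold1, Klf2, Nfkbia and Zfp36 were high in sets 7 and 8, and Zfp36l1, Tob1 and Tent5c were low there. Klf4 was highest in set 7 (18.9 CPM), while set 8 (11.7 CPM) was below sets 4 and 5 (13.8 and 12.7 CPM).

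After means of hindbrain-rich and other columns were removed, 96.7% of the variance of log2 CPM lay between sets for Apold1, 96.2% for Klf2, 94.2% for Zfp36, 93.8% for Nfkbia and 90.8% for Klf4. The shares were 75.1% for Tob1, 73.2% for Tent5c and 68.3% for Zfp36l1. The median was 92.3% over the 8 genes and 32.8% over all 20437, and a share above 50% was found for 8 of 8 and for 3281 genes (16.1%). Since the genes were chosen on their sets, these shares describe the choice. Over the 24 libraries, Apold1 correlated with Nfkbia at 0.91, Klf2 at 0.89, Zfp36 at 0.87 and Klf4 at 0.85, and with Tob1 at -0.80, Zfp36l1 at -0.75 and Tent5c at -0.40. Klf2 and Klf4 correlated at 0.91, and Zfp36l1 and Tob1 at 0.78. These correlations are descriptions over libraries that share sets, means of hindbrain-rich and other columns being removed first.

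The endothelial markers did not have this range. Summed over 15 endothelial genes (Cldn5, Pecam1, Cdh5, Flt1 and others), set means ran from 572 CPM in set 7 to 671 CPM in set 3. This was a 1.17-fold range, and all 15 passed the filter. Of the 15, 13 had their lowest set mean in set 7 or 8, against 26.1% of all genes. All of these 13 were lowest in set 7, where Apold1 was highest, and none in set 8. Slc2a1, another of the 15, was highest in set 7 at 127 CPM. Over sets 7 and 8 together the sum averaged 598 CPM, against 580 CPM over sets 1 and 2. Cldn5, a tight junction gene of the blood-brain barrier, averaged 29.1 CPM in set 7 and 42.4 CPM in set 3. The summed level of 13 mural cell and fibroblast genes ran from 571 CPM in set 7 to 708 CPM in set 8, and that of 8 red cell genes from 144 CPM in set 3 to 418 CPM in set 1. The part of other cell types in the members' levels was not tested.

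Other early-response genes had mixed orders. Of 34 such genes tested, 15 had their highest set mean in set 7 or 8, 44.1% against 26.8% of all genes, and their median share of variance between sets was 49.6%. Fos and Nr4a1, induced by neuronal activity among other stimuli, had the highest mean in set 4 (63.7 and 166 CPM), not in set 7. Dusp1, a phosphatase of MAP kinases, ran from 26.5 CPM in set 1 to 67.0 CPM in set 8. Of 16 neuronal activity genes, 3 were highest in set 7 or 8, and Arc, a synaptic activity gene, was highest in set 4 at 291 CPM. Of 14 glucocorticoid-responsive genes without Nfkbia, 10 (71.4%) were highest in set 7 or 8: Sgk1, a kinase, averaged 161 CPM in set 7 and 57.0 CPM in set 6, and the clock gene Per1 133 CPM in set 7 and 61.9 CPM in set 3.

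Genes with the members' own functions varied in range and order over sets. Of 35 other mRNA decay genes, 17 (48.6%) were highest in set 7 or 8, and their median range between set means was 1.24-fold, against 1.40-fold for all genes. Btg2, a partner of the CCR4-NOT deadenylase like Tob1, was highest in set 8 at 40.7 CPM and lowest in set 1 at 15.5 CPM, the order of Zfp36 and not of Tob1. Zfp36l2, another Zfp36 family gene, was like Zfp36l1 lowest in set 7, at 22.8 CPM, and averaged 30.3 CPM in set 3. Of 14 other KLF genes, 3 were highest in set 7 or 8, and their median range was 1.44-fold, with 1.20-fold for Klf3, 1.68-fold for Klf5, 1.18-fold for Klf6 and 2.31-fold for Klf10, which was highest in set 5. Of 18 NF-kappaB pathway genes, 5 were; Nfkbib, another inhibitor of this family, had set means of 22.7 to 27.1 CPM. Of 8 endothelial targets of Klf2 and Klf4, 3 were highest and 4 lowest in set 7 or 8; Nos3, the endothelial nitric oxide synthase, was lowest in set 7 at 12.4 CPM, where Klf2 was highest, and Thbd, encoding thrombomodulin, was lowest in set 6 at 16.2 CPM. Of 14 AU-rich messenger RNAs known as targets of the Zfp36 protein, 7 passed the filter. The 2 of these that were highest in set 7 or 8 were Il1b and Ccl2, which averaged 0.191 and 0.119 CPM, too low to order; Ptgs2 and Ier3, at 9.15 and 8.33 CPM, were highest in sets 2 and 1.

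Among 15078 genes with a mean of at least 1 CPM, the 8 most like the mean z-score of the members (Pearson r over 24 libraries, means of hindbrain-rich and other columns removed) were Sik1 at 0.88, Tmem252 at 0.79, Sdk2 at 0.78, Dusp1 at 0.77, and Dusp4, Tcim, Fosl2 and Bicd2 at 0.74 to 0.75. Tob1 (-0.59), Zfp36l1 (-0.37) and Tent5c (-0.08) ran against that mean or apart from it. The 4 most like Apold1 were Foxf1 at 0.87, Sgk1 and Maff at 0.86 and Tcim at 0.84. Maff was at 4.62 CPM in set 7 and 1.32 CPM in set 2.

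The comparison of E4 with E3, the question the series title points to, called none of the 8 genes. At time code 05 edgeR's quasi-likelihood test called 0 of the 8 members, with 0% of all genes called, and 263 genes but 0 members had an unadjusted p under 0.05. At time code 10 it called 0 members and 0% of genes, with 655 genes and 0 members under 0.05 unadjusted. At time code 15 it called 0 members and 0% of genes, with 271 genes and 0 members under 0.05 unadjusted. Averaged over time codes it called 0 members and 0% of genes, with 246 genes and 0 members under 0.05 unadjusted. For the difference of E4 minus E3 between time codes it called 0 members and 0% of genes, with 377 genes and 0 members under 0.05 unadjusted. DESeq2 called 0 members in each of these 5 comparisons; it called 15 genes at time code 10, 7 for the difference between time codes and 0 in the other 3.

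Apold1 in E4 and E3 averaged 5.04 ± 2.29 and 4.98 ± 2.67 CPM at time code 05, 8.45 ± 1.60 and 8.82 ± 2.21 CPM at 10, and 17.8 ± 11.5 and 21.2 ± 11.6 CPM at 15 (SD, n = 4 each). The log2 fold change of E4 over E3 was 0.02 at 05 (standard error, SE, 0.50), -0.06 at 10 (SE 0.49) and -0.26 at 15 (SE 0.49). Each group of code 15 held 1 library of set 6 and 3 of sets 7 and 8. For Klf2 the averages in E4 and E3 at 15 were 24.0 ± 9.09 and 26.3 ± 7.84 CPM, and the fold change was -0.14 (SE 0.34). The largest of the 24 estimates relative to their SE were for Zfp36l1, at -0.18 (SE 0.12) at code 10, with 42.9 ± 1.15 CPM in E4 and 48.8 ± 5.33 CPM in E3, and 0.18 (SE 0.12) at code 15, with 43.3 ± 6.66 CPM in E4 and 38.2 ± 5.32 CPM in E3. Their directions were opposite, and neither had an unadjusted p under 0.05 in edgeR. Hindbrain-rich columns were not balanced over E codes here: they were E3-10 1, E3-10 4 and E4-10 2, and E4-15 1, E4-15 4 and E3-15 3. This fit had no term for them, and Zfp36l1 was higher in hindbrain-rich columns by 0.20 (SE 0.05). For 12 cerebellar and hindbrain genes the median log2 fold change of E4 over E3 was -1.13 at code 10 and 1.31 at code 15.

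With terms for sets and hindbrain-rich columns in the fit, the error of the average E4 minus E3 difference was smaller for every gene except Tent5c (SE 0.13, against 0.12 without them); each set held both codes. For Apold1 it was -0.03 (SE 0.10), against -0.10 (SE 0.29) without those terms; for Klf2 -0.11 (SE 0.06), against -0.09 (SE 0.20). The other 6 were between -0.09 (Klf4, SE 0.09) and 0.00 (Tob1, SE 0.06), and 0 of the 8 members were called by edgeR. The genes were chosen on their levels over sets, so the smaller errors with set terms describe that choice.

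**Figure D3:**
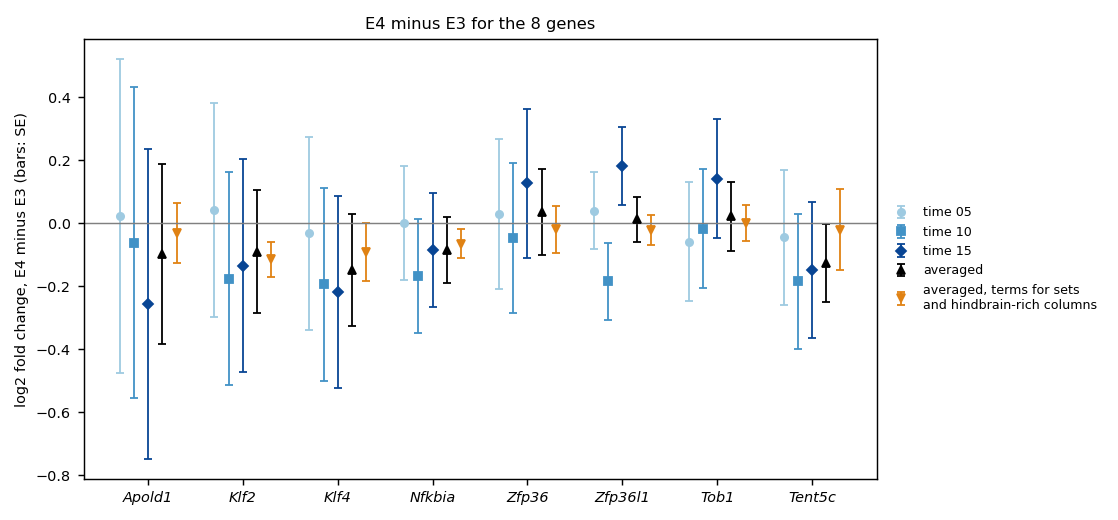
Log2 fold change of E4 minus E3 (points, with SE bars) for the 8 genes at each time code, averaged, and averaged with terms for sets and hindbrain-rich columns. Estimates lay between -0.26 and 0.18, and bars were shortest with terms for sets for every gene except Tent5c. The shorter bars describe the choice of genes on their sets.

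Between time codes the members differed by more, but these values rest on the contrast that chose the genes. Fold changes, p-values and calls between time codes, in any fit, are therefore given without a reading. For code 15 minus 05 edgeR gave log2 fold changes of 1.96 for Apold1 (SE 0.36, 19.5 ± 10.8 CPM in code 15 and 5.01 ± 2.30 CPM in code 05, SD, n = 8 each), 1.15 for Klf2 (SE 0.24), 1.05 for Zfp36 (SE 0.17), 0.95 for Klf4 (SE 0.22) and 0.55 for Nfkbia (SE 0.13). Tent5c was at -0.83 (SE 0.15, 2.78 ± 0.361 CPM in code 15 and 4.96 ± 1.12 CPM in code 05), Tob1 at -0.38 (SE 0.13) and Zfp36l1 at -0.25 (SE 0.09). At an adjusted p under 0.05, 0 of the 8 members and 0% of all genes were called by edgeR, the smallest adjusted p of a member being 0.0936 for Zfp36; 458 genes and 8 members had an unadjusted p under 0.05, and DESeq2 called 30 genes and 6 members. Without E4-15 1 edgeR called Apold1 and Zfp36, and without E3-15 1 it called Zfp36; both libraries are of set 6. Over all genes these fits called 3 and 1. With a term for hindbrain-rich columns it called 5 members and 11 genes in all. The part of members among the called genes describes their choice. For code 10 minus 05 edgeR called 0 members and 0% of genes (320 genes and 4 members under 0.05 unadjusted, and 2 genes and 0 members by DESeq2). For code 15 minus 10 it called 0 members and 0% of genes (774 genes and 4 members under 0.05 unadjusted, and 8 genes and 0 members by DESeq2).

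Time codes within a set could be compared only through sets 3 and 6. In a fit with terms for sets and for hindbrain-rich columns, added after the data were seen, code 15 minus 05 was -0.16 for Apold1 (SE 0.43), 0.49 for Klf2 (SE 0.24), 0.70 for Klf4 (SE 0.35), -0.17 for Zfp36 (SE 0.33), 0.08 for Nfkbia (SE 0.18), -0.67 for Tob1 (SE 0.15), -0.16 for Zfp36l1 (SE 0.23) and -0.60 for Tent5c (SE 0.56). For Apold1, Zfp36 and Nfkbia these were between -0.17 and 0.08, with SE of 0.18 to 0.43, where the groups differed by 0.55 to 1.96. This link passes through 3 libraries in each of 2 sets, and the only library of code 10 beside libraries of code 05, E3-10 1, is a hindbrain-rich column. For Tob1, E3-10 1 had 54.3 CPM, and E4-05 4 and E3-05 4 had 54.9 and 60.9 CPM. The fitted value of code 10 minus 05 for Tob1, -0.57 (SE 0.11, adjusted p 0.0392, with 81 genes called in all), thus includes the hindbrain-rich term, while E3-10 1 had the lowest Gabra6 of the 8 such columns, 85.5 CPM, against 219 to 533 CPM in the other 7. Outside sets 3 and 6, time code and set cannot be told apart.

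**Figure D4:**
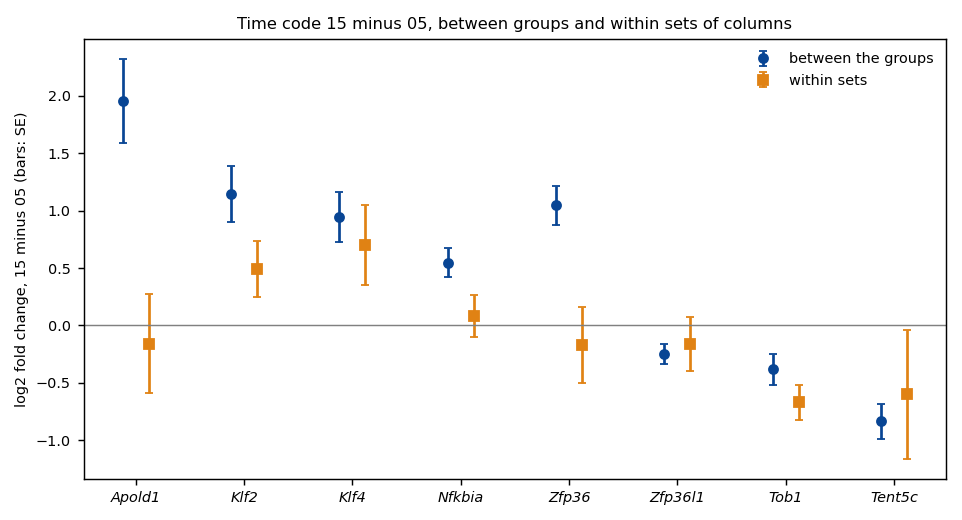
Log2 fold change of time code 15 minus 05 (points, with SE bars) for the 8 genes, between groups and in a fit with terms for sets and hindbrain-rich columns. Apold1 was at 1.96 between groups and at -0.16 within sets.

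Hindbrain-rich columns were compared with the other columns of their own sets, a comparison that the choice of the genes did not use. Of the 8 members edgeR called 5, beside 61.4% of all genes (6643 higher, 5901 lower); DESeq2 also called 5. A share of 5 in 8 is near that of all genes. Tob1 was higher, with 61.9 ± 9.78 CPM in hindbrain-rich columns and 47.9 ± 8.29 CPM in other columns (SD, n = 8 and 16), a log2 fold change of 0.38 (SE 0.05, adjusted p 4.07e-06). It was the highest of its set in 7 of 8 sets; the exception was set 3, where E3-10 1 was lowest at 54.3 CPM. Zfp36l1 was higher by 0.20 (SE 0.05, adjusted p 0.00233), with 49.2 ± 6.90 CPM in hindbrain-rich columns and 42.8 ± 4.82 CPM in other columns, and was highest in 6 of 8 sets. Nfkbia was higher by 0.14 (SE 0.05, adjusted p 0.0116), with 23.2 ± 5.70 CPM in hindbrain-rich columns and 21.1 ± 5.14 CPM in other columns, also highest in 6 of 8 sets.

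Klf2 and Apold1 were lower in hindbrain-rich columns. Klf2 had 16.8 ± 7.50 CPM in hindbrain-rich columns and 21.0 ± 9.09 CPM in other columns, a log2 fold change of -0.33 (SE 0.06, adjusted p 0.000141), and the hindbrain-rich column was the lowest of the set in 8 of 8 sets. Apold1 was at -0.31 (SE 0.09, adjusted p 0.00569), lowest in 5 of 8 sets and highest in set 7. Klf4 (-0.14, SE 0.09), Zfp36 (0.14, SE 0.07) and Tent5c (0.04, SE 0.12) were not called by edgeR. With the 6 groups in place of the sets, Apold1 and Nfkbia were not called, and 11753 genes were. Without E3-10 1, Nfkbia was not called and Klf4 was; Nfkbia was also not called without E3-05 2, and Zfp36 was called without E4-15 1. The members' median was 0.09, against 0.04 over all genes. Of the whole variance, with means of hindbrain-rich and other columns kept, the region took a smaller share than sets for each member. Region shares ran from 0.128% for Tent5c and 2.33% for Apold1 to 22.0% for Zfp36l1 and 36.7% for Tob1. Set shares of this whole were 73.1%, 94.9%, 55.8% and 52.1% for these genes in the same order. The median region share was 3.28%, against 29.5% over all genes. A large share of the whole between sets leaves less for the region, so these shares too describe the choice of genes on their sets.

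Related lists are given for hindbrain-rich against other columns in edgeR's test over all genes, which called 61.4% (6643 higher, 5901 lower). The mRNA decay, glucocorticoid-responsive, endothelial, Klf2 and Klf4 target and AU-rich lists had a smaller part called than all genes. Lists share genes: Fos, Fosb and Junb, among others, stand in both the early-response and the neuronal activity list. Of 34 other early-response genes 23 were lower and 3 higher: Junb, an AP-1 subunit, had a log2 fold change of -2.17 (SE 0.15), Fosb of -2.62 (SE 0.22) and Fos of -0.59 (SE 0.11), and Jun was at -0.03 (SE 0.07). All 16 neuronal activity genes were lower, Arc with -2.35 (SE 0.26). Of 35 mRNA decay genes 10 were higher and 7 lower; Btg1, a relative of Btg2 and Tob1, was higher by 1.42 (SE 0.09). Of 14 other KLF genes 10 were lower and 0 higher, Klf5 with -2.29 (SE 0.20) and Klf6 with -0.71 (SE 0.07). Of 18 NF-kappaB pathway genes 12 were higher and 3 lower, the inhibitor genes Nfkbie by 1.80 (SE 0.13) and Nfkbiz by 0.62 (SE 0.13). Of 14 glucocorticoid-responsive genes 4 were higher and 4 lower; Sgk1 was at 0.00 (SE 0.06), and Fkbp5 was lower with -1.06 (SE 0.10). Of 15 endothelial genes 0 were higher and 1 lower, and Cldn5 was at -0.01 (SE 0.06). Of 8 endothelial targets of Klf2 and Klf4, 0 were higher and 1 lower; of 7 AU-rich messenger RNAs 1 was higher and 3 lower. In the comparisons of E codes and of time codes, edgeR called 0 genes of each of these lists.

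**Figure D5:**
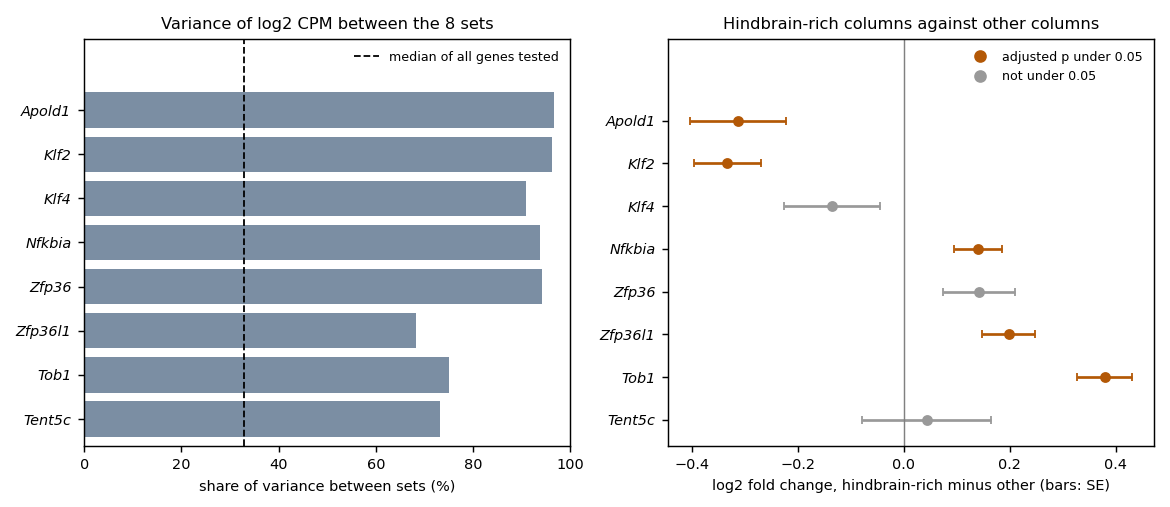
Left, share of the variance of log2 CPM between the 8 sets for each gene, after means of hindbrain-rich and other columns were removed. The dashed line is the median of all genes (32.8%). Right, log2 fold change of hindbrain-rich columns minus other columns with SE bars. Apold1 and Klf2 were lower, and Tob1, Zfp36l1 and Nfkbia higher, in hindbrain-rich columns.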

How the data were processed

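The authors deposited raw whole-number counts for each gene in 1 table with 24 columns. Per the submitters' processing notes, reads were aligned with HISAT2 2.1.0 to mm39 and counted with featureCounts 2.0.6; the annotation and strand setting are not given in the sources used here, so antisense reads cannot be told apart. Libraries were made from TRIzol-extracted RNA with a NEBNext kit, per the labels. Of counts from 1 to 19, 62.6% to 70.8% per library were even numbers, which pairs counted as 2 reads would give. Counts were analysed in R 4.3.3 with edgeR 4.0.16: filterByExpr over the 6 groups, TMM factors, quasi-likelihood F tests and Benjamini-Hochberg adjustment over 20437 genes, called under 0.05. The E and time codes were contrasts of 6 group coefficients (18 residual degrees of freedom); hindbrain-rich columns were tested with a term for each set. Variance shares and correlations used log2 CPM with a prior count of 2. Alternatives included DESeq2 1.42.0. The members and gene lists were chosen with earlier results of these data known. Genes named are the members, the first 4 of each list, the genes most like the members, and list genes with the smallest p; Nr4a1 and Klf10 were chosen after their values were seen. The procedure was tested on simulated data. Lengths and promoters came from GRCm38 annotations (GENCODE M21, RefSeq).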

Additional observations from a re-analysis of the deposited data

Results flagged for a closer look

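In 3 of 48 combinations of gene and group, 1 library lay apart from the other 3; chance gives this in about 1 group in 20. Apold1 was at 8.47 CPM in E4-05 4, against 3.80 to 3.98 CPM in the other E4-05 libraries, and E4-05 4 is the E4-05 library of set 3. Klf2 was at 10.7 CPM in E4-15 1, against 25.4 to 29.9 CPM in the other E4-15 libraries, and E4-15 1 is the E4-15 library of set 6. Klf4 was at 7.64 CPM in E3-05 3, against 6.59 to 6.68 CPM in the other E3-05 libraries.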

How the results depend on the processing

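No value changed direction under the alternatives while called. For E4 minus E3, at each time code, averaged and between time codes, every alternative called 0 members. For code 15 minus 05, where 0 members were called, 1 was called with a replicate block (Zfp36, adjusted p 0.0346; 1 gene in all), 5 with a term for hindbrain-rich columns (Apold1, Klf2, Zfp36, Tob1 and Tent5c; 11 genes in all) and 6 with DESeq2 (30 genes in all). Leaving out 1 library gave 0 to 2 calls: Apold1 and Zfp36 without E4-15 1, and Zfp36 without E3-15 1. These calls rest on the contrast that chose the genes and are given without a reading. For code 10 minus 05, 1 was called within sets (Tob1, with 81 genes called in all). That value includes the hindbrain-rich term for E3-10 1, which had the lowest Gabra6 of those columns. For hindbrain-rich columns, 6 groups in place of the sets gave 3 calls (Klf2, Zfp36l1 and Tob1), and leaving out 1 library gave 4 to 6: Nfkbia was not called without E3-05 2 or E3-10 1, Klf4 was called without E3-10 1, and Zfp36 without E4-15 1. The median share of variance between sets was 70.6% without the 6 libraries of sets 7 and 8, an alternative added after the data were seen, and 89.8% to 93.8% without 1 library. The cause was not tested. After group means were removed, libraries that share a library number correlated at a median of -0.164 (60 pairs, -0.756 to 0.742). Others correlated at a median of 0.152 (180 pairs, -0.779 to 0.825). Differences between hindbrain-rich and other columns were left in these values, so they cannot decide whether the library numbers pair libraries.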
